A study of Mus musculus with 12 samples.

Results

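Cell cycle and proliferation genes were followed in RNA from blood of injured mice. The set held 41 genes, found by symbol among the 37583 gene rows of the count-derived table. Of these, 11 act in S phase, 28 in G2 and mitosis, and 2, E2f1 and Foxm1, are transcription factors that drive the 2 programmes. Wild type mice had a burn and a tenotomy (a cut tendon), and blood was taken after 6 hours (6h), 1 day (Day1) and 7 days (Day7), with 4 libraries at each time. All 12 libraries share the genotype and the injury, and uninjured blood was not analysed here. The blood had been sorted on an iChip, a microfluidic device, and the labels describe the yield as cMPCs together with blood cells, so each library is a mixture. Nothing in the labels ties replicates to separate mice, and the spread behind each p-value may be technical, at least in part. Reads on genes of the Y chromosome (Y-linked) numbered 0, 0, 76 and 76 in 6h replicates 1 to 4. In Day1 replicates 1 to 4 they numbered 0, 603, 422 and 853. Libraries of these times thus differed in Y-linked RNA, and whether each came from its own mouse was not tested.

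A dividing cell makes the enzymes of nucleotide supply and the helicase that opens DNA in S phase, and then the cyclins, kinases and spindle proteins of mitosis. The first group is known to be driven by E2F factors and the second by the MuvB complex with B-Myb and FoxM1. Blood holds few dividing cells. Red cell precursors divide while they build haemoglobin, and reticulocytes, the youngest red cells, have lost the nucleus but keep some RNA. Alas2, the first enzyme of haem synthesis in red cell precursors, and Slc4a1, the band 3 anion exchanger of the red cell membrane, served as the erythroid level, taken per library as their mean log2(value + 1).

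Promoters of 3 mitotic and 2 S phase genes are shown for the letters known from cell cycle genes. The windows come from RefSeq on GRCm38.p6 and run from 250 bases before the start site to 30 bases from it, 5′ to 3′ on the gene's strand. Ube2c (chr2:164769679-164769958, plus strand), Ccnb2 (chr9:70421525-70421804, minus strand) and Plk1 (chr7:122159185-122159464, plus strand) are mitotic. Rrm2 (chr12:24708004-24708283, plus strand) and Mcm5 (chr8:75109259-75109538, plus strand) act in S phase. Capitals mark TTTGAA and TTTAAA (the letters of the cell cycle genes homology region), CCAAT (the NF-Y box), and TTTCCCGC, TTTGGCGC and TTTCGCGC (E2F letters), each on either strand. The TTTGAA of Plk1 lies just past the stretch shown. In Mcm5 an E2F match on each strand overlaps the other, and in Ube2c a pair of CCAAT matches on opposite strands overlap.
Ube2c: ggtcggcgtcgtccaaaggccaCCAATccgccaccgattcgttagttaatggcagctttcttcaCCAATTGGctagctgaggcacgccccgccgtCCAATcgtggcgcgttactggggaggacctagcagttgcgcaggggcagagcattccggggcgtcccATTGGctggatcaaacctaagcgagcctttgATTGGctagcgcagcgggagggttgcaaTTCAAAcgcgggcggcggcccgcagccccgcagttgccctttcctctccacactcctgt
Ccnb2: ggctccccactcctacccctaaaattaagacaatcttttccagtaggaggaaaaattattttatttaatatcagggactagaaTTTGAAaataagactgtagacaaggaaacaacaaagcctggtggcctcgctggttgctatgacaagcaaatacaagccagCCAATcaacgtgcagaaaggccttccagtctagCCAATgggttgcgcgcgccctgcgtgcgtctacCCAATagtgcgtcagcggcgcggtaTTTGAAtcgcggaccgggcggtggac
Plk1: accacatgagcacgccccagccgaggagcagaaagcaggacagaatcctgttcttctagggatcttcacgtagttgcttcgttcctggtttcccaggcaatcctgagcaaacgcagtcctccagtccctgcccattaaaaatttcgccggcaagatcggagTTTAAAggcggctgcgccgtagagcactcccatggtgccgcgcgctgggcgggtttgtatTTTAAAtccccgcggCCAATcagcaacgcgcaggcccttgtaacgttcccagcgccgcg
Rrm2: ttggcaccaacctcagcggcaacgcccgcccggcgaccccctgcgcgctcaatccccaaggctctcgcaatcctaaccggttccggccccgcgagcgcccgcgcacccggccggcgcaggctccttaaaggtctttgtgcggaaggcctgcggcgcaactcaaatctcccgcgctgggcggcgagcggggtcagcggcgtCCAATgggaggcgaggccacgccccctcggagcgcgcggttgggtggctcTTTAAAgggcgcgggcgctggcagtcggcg
Mcm5: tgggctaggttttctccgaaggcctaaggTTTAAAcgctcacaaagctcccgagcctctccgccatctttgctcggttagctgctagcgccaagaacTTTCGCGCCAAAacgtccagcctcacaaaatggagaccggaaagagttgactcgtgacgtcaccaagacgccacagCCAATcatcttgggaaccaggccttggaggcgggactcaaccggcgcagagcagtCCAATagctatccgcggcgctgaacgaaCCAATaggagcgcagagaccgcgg

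Motifs were counted in full windows of 300 bases, which 24 of 28 mitotic and 10 of 11 S phase genes had. TTTGAA was present in 18 of 24 mitotic genes (75.0%) and 1 of 10 S phase genes (10%, Mcm2), against 20.2% of 27025 genes with a window. CCAAT was present in 21 of 24 mitotic genes (87.5%) and 8 of 10 S phase genes, against 41.1% of all genes. Any of the 3 E2F letter strings was present in 1 of 24 mitotic genes (4.17%, Cdk1) and 4 of 10 S phase genes (40.0%, Mcm3, Mcm5, Mcm6 and Mcm7), against 2.12% of all genes. TTTAAA, in contrast, was found in 7 of 24 mitotic and 3 of 10 S phase genes, against 14.9% of all genes. A match is a description of the letters and was not tested for factor binding. Ccna2, Tpx2, Mcm4, Kif20a, Aurkb and Foxm1 had no window in the table.

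Values below are read counts divided by a library scaling factor, as deposited, and are called normalised counts. Libraries held 5098395 to 12379041 reads, with 16.1% to 70.3% of them on haemoglobin genes and 7631 to 16647 genes detected. A single read was worth 0.0314 to 0.617 normalised counts, so 3 reads, taken as the detection limit, corresponded to 0.0942 to 1.85, counting error only. Of the 492 values of the 41 genes in 12 libraries, 93 were 0, and 11 genes had reads in every library. The filter of at least 1 normalised count in at least 4 libraries kept 35 genes, namely all 11 S phase genes, 23 of 28 mitotic genes and E2f1. Aurkb, Bub1, Ect2, Kif11, Kif20a and Foxm1 were below it.

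The erythroid level differed widely between libraries of 1 time. It was 10.45, 12.63, 11.31 and 8.80 in 6h replicates 1 to 4, 10.17, 6.75, 9.18 and 8.53 in Day1 replicates 1 to 4, and 7.89, 11.03, 14.88 and 12.78 in Day7 replicates 1 to 4. Alas2 had 15511, 110892, 50840 and 5952 normalised counts at 6h, 7742, 845, 5223 and 2852 at Day1 and 2167, 14283, 181547 and 38270 at Day7. Slc4a1 had 126, 361, 126 and 32.2 at 6h, 172, 12.7, 63.3 and 47.2 at Day1 and 24.8, 307, 5010 and 1290 at Day7. Both were highest in Day7 replicate 3 and lowest in Day1 replicate 2. Reads on the 41 genes numbered 4005, 5304, 2764 and 3271 at 6h, 4674, 3432, 3955 and 4273 at Day1, and 1741, 4164, 17148 and 8612 at Day7. Of all 12 libraries, Day7 replicate 3 held the most and Day7 replicate 1 the fewest of these reads. As RPM of the whole library these were 659, 1040, 514 and 264 at 6h, 889, 306, 533 and 442 at Day1, and 166, 483, 1885 and 947 at Day7. Ube2c and Nusap1 alone gave 12857 of the 17148 reads in Day7 replicate 3 and 1056 of the 3432 in Day1 replicate 2. In bulk RNA, more cells of a type and more RNA per cell cannot be told apart. The heatmap of all 41 genes shows both the Day7 spread and the low S phase values.

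**Figure D1:**
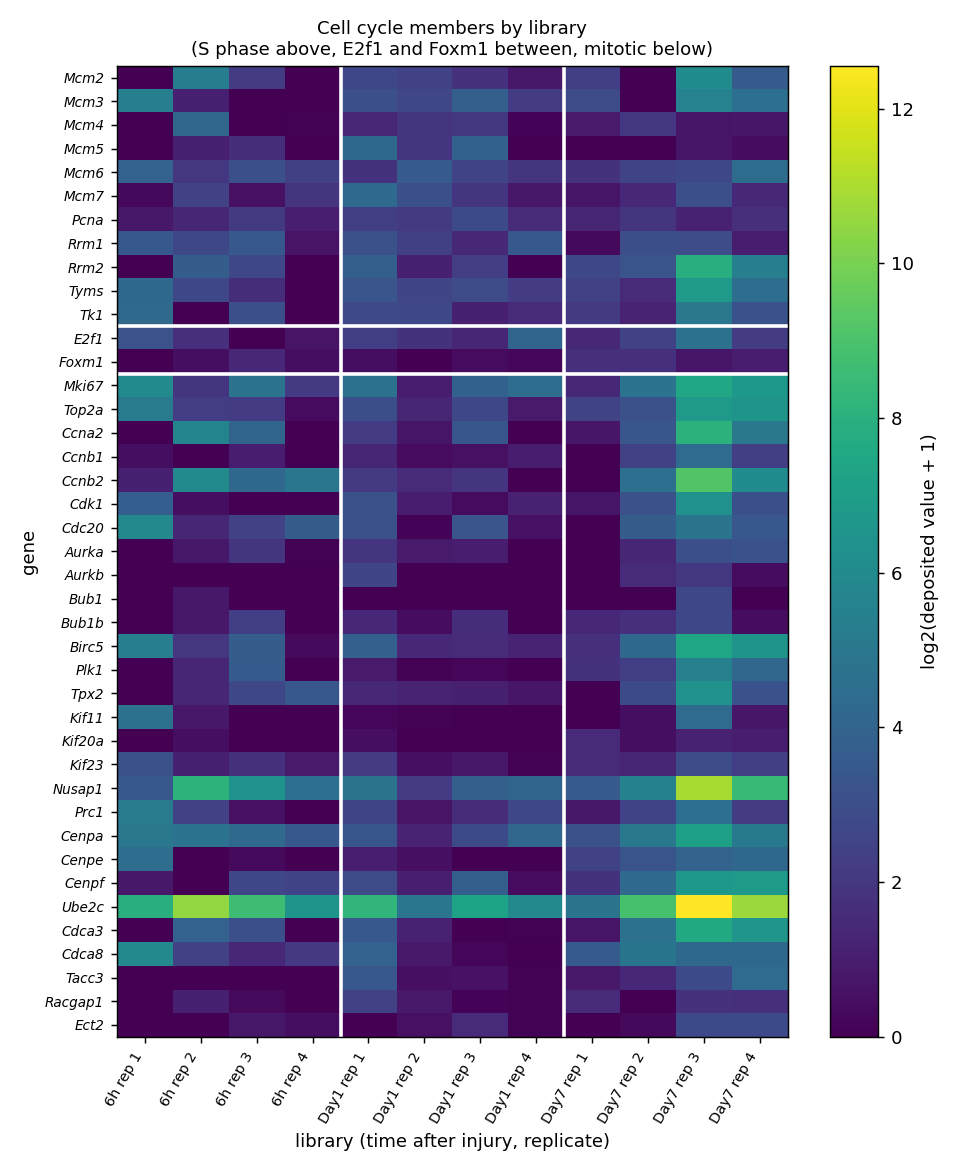
Normalised counts of the 41 genes on a log2(value + 1) colour scale, with 1 row per gene and 1 column per library. Day7 replicate 3 has the brightest column, with Ube2c at 6016 and Nusap1 at 1915 normalised counts.

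None of the 11 S phase genes passed the test between any pair of times. Rrm2 (ENSMUSG00000020649), the small subunit of ribonucleotide reductase, had 0, 12.1, 5.55 and 0 normalised counts in 6h replicates 1 to 4, 12.98, 1.16, 3.79 and 0 at Day1 and 5.57, 8.61, 229 and 41.2 at Day7. Tyms, thymidylate synthase, had 18.1, 5.68, 2.17 and 0 at 6h, 8.77, 5.21, 6.67 and 3.74 at Day1 and 4.40, 1.91, 109 and 22.3 at Day7. Both were highest in Day7 replicate 3 while their times overlapped. Pcna, the sliding clamp of DNA polymerase, had 0.747, 1.51, 3.38 and 1.08 at 6h, 4.08, 3.45, 5.99 and 1.87 at Day1 and 1.44, 2.68, 1.23 and 2.33 at Day7. Mcm5, a subunit of the replicative helicase, had 0, 1.14, 2.17 and 0 at 6h, 17.9, 2.83, 13.7 and 0 at Day1 and 0, 0, 0.617 and 0.333 at Day7. Mcm5 was therefore highest at Day1, where 3 of 4 libraries exceeded every Day7 library. The other 7 S phase genes, the helicase subunits Mcm2, Mcm3, Mcm4, Mcm6 and Mcm7, the large reductase subunit Rrm1 and thymidine kinase Tk1, ranged between 0 and 66.0 normalised counts, the highest for Mcm2 in Day7 replicate 3.

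The 2 transcription factors were low. E2f1, an activator of S phase genes, had 8.21, 2.27, 0 and 0.599 normalised counts in 6h replicates 1 to 4, 4.08, 2.64, 1.52 and 15.5 at Day1 and 1.65, 4.40, 24.7 and 3.66 at Day7. Foxm1, an activator of mitotic genes, had 0, 0.379, 1.69 and 0.360 at 6h, 0.371, 0.0314, 0.303 and 0.117 at Day1 and 2.27, 2.30, 0.617 and 0.998 at Day7. All 4 Day7 values of Foxm1 lay above all 4 Day1 values, but the gene fell under the filter and 7 of the 12 values were at or below the limit of 3 reads.

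The mitotic genes differed widely among themselves, from a highest value of 1.93 for Kif20a to 6016 for Ube2c. Ube2c (ENSMUSG00000001403), the E2 enzyme of the anaphase-promoting complex, had 235, 1456, 397 and 89.5 normalised counts in 6h replicates 1 to 4, 306, 29.4, 155 and 60.1 at Day1 and 27.9, 469, 6016 and 1642 at Day7. Nusap1 (ENSMUSG00000027306), a protein of spindle microtubules, had 9.52, 279, 84.2 and 22.7 at 6h, 27.9, 3.74, 12.7 and 15.8 at Day1 and 11.01, 45.4, 1915 and 349 at Day7. Both were lowest in the libraries with the lowest erythroid level at Day1 and Day7, and highest in the library with the highest at 6h, Day1 and Day7. Ccna2 (ENSMUSG00000027715), cyclin A2, had 0, 49.6, 15.7 and 0 at 6h, 3.71, 0.659, 9.33 and 0 at Day1 and 0.688, 9.19, 265 and 31.3 at Day7. Ccnb2 (ENSMUSG00000032218), cyclin B2, had 1.12, 62.9, 17.6 and 29.8 at 6h, 3.46, 1.92, 2.65 and 0 at Day1 and 0, 23.4, 574 and 65.5 at Day7. Cdca3 (ENSMUSG00000023505), a trigger of mitotic entry, had 0, 14.4, 7.48 and 0 at 6h, 9.89, 1.19, 0 and 0.0389 at Day1 and 0.619, 24.5, 198 and 91.1 at Day7. Each of these 3 genes had 1 Day7 library, replicate 1, among or below the Day1 values and 3 above most of them.

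Plk1 (ENSMUSG00000030867), the Polo-like kinase of mitotic entry, had 0, 1.51, 11.6 and 0 normalised counts at 6h, 0.865, 0.0628, 0.152 and 0 at Day1 and 2.61, 4.02, 43.8 and 17.0 at Day7. Cenpe (ENSMUSG00000045328), a kinetochore motor, had 21.7, 0, 0.241 and 0 at 6h, 1.11, 0.440, 0 and 0 at Day1 and 4.54, 8.61, 14.8 and 18.0 at Day7. For these 2 genes every Day7 library, replicate 1 included, lay above every Day1 library. Mki67, the classical proliferation antigen, had 60.9, 2.65, 26.1 and 3.42 at 6h, 24.8, 0.942, 13.7 and 21.3 at Day1 and 1.65, 26.4, 176 and 103 at Day7. Top2a, the topoisomerase that untangles sister DNA, had 36.6, 3.79, 3.62 and 0.300 at 6h, 7.04, 1.48, 5.61 and 0.856 at Day1 and 4.95, 7.66, 110 and 89.5 at Day7. Neither of these markers separated the times.

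Cyclin B1, Ccnb1, had 0.373, 0, 0.966 and 0 normalised counts at 6h, 1.48, 0.283, 0.455 and 0.934 at Day1 and 0, 4.59, 19.7 and 3.99 at Day7. Its kinase Cdk1 had 12.7, 0.379, 0 and 0 at 6h, 7.66, 1.04, 0.303 and 1.21 at Day1 and 0.619, 7.66, 81.4 and 7.32 at Day7. Birc5, survivin, of the chromosomal passenger complex, had 40.1, 3.03, 12.1 and 0.240 at 6h, 13.3, 1.70, 1.82 and 1.36 at Day1 and 2.34, 17.8, 171 and 88.5 at Day7. Aurkb, the kinase of that complex, was detected in 4 libraries only, at 5.19 in Day1 replicate 1 and 1.91, 3.08 and 0.333 in Day7 replicates 2 to 4. Partners of 1 complex therefore differed in how often they were seen. Of the remaining mitotic genes, Cdc20, Kif11, Kif23, Prc1 and Cdca8 had their highest value of all 12 libraries in 6h replicate 1, as did Cenpe and the S phase gene Rrm1. That library also had the highest summed level of T cell markers, 1033 normalised counts against 0.617 to 93.1 in the other 11. The same library had the highest sums of NK cell markers (237 against 0 to 42.5) and plasma cell markers (286 against 16.7 to 212). Its NK cell sum came mostly from Gzma (165) and Nkg7 (53.4), with Ncr1, Klrb1c and Eomes at 0. Its plasma cell sum came mostly from Igj (182) and Xbp1 (98.0), with Prdm1 and Irf4 at 0. This library also had the fewest genes detected, 7631. Day7 replicate 3, where 20 of the 35 tested genes peaked, had the next fewest, 7635. The part of T cells, NK cells, plasma cells and gene detection in these values was not tested. The plot of 9 genes shows the values by time.

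**Figure D2:**
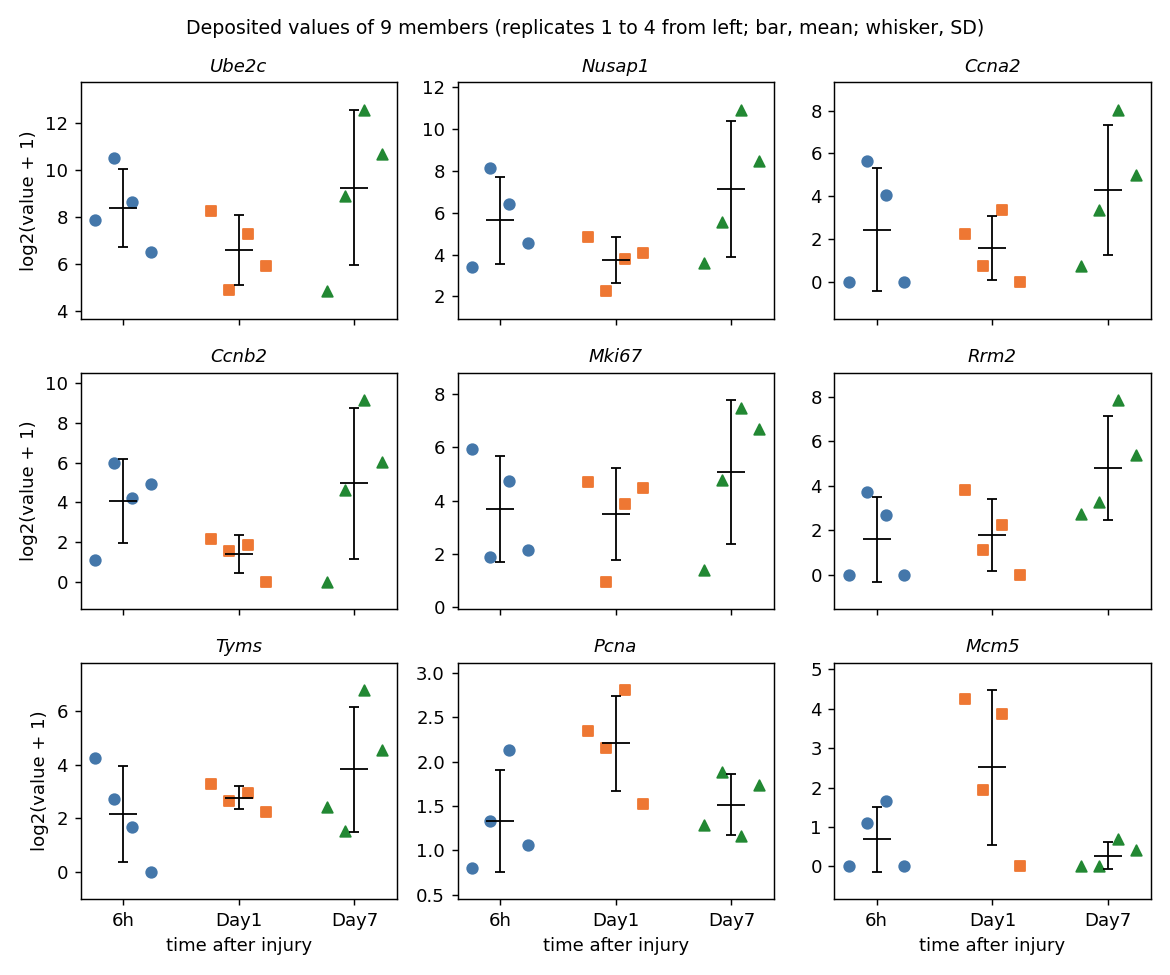
Normalised counts of 9 genes on a log2(value + 1) scale, each panel with its own axis, for 4 libraries at 6h, Day1 and Day7, with the mean and SD. The Day7 points of Ube2c span 27.9 to 6016 normalised counts, while Pcna spans 0.747 to 5.99 over all 12 libraries.

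The 2 classes were then set side by side per library, as the mean over genes of log2(value + 1) minus the mean of each gene over the 12 libraries. The S phase mean was -0.11, 0.27, -0.28 and -1.60 in 6h replicates 1 to 4, 0.84, 0.27, 0.25 and -0.83 at Day1 and -0.56, -0.61, 1.71 and 0.66 at Day7. The mitotic mean was 0.12, -0.15, -0.05 and -1.05 at 6h, 0.23, -1.41, -0.74 and -1.33 at Day1 and -1.001, 0.62, 3.07 and 1.69 at Day7. The mitotic minus S phase difference was positive in 3 of 4 6h libraries (0.24, -0.42, 0.23 and 0.55), negative in all 4 Day1 libraries (-0.61, -1.68, -0.99 and -0.50) and positive in 3 of 4 Day7 libraries (-0.44, 1.23, 1.35 and 1.02). Each gene was centred over the same 12 libraries, so these differences sum to 0 and show which libraries lie high or low, not which class had the higher level. In the plot against erythroid level, the libraries of Day1 and those of Day7 ranked alike by mitotic mean and by erythroid level, those of 6h did not, and the S phase mean gave another ranking at each of the 3 times.

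**Figure D3:**
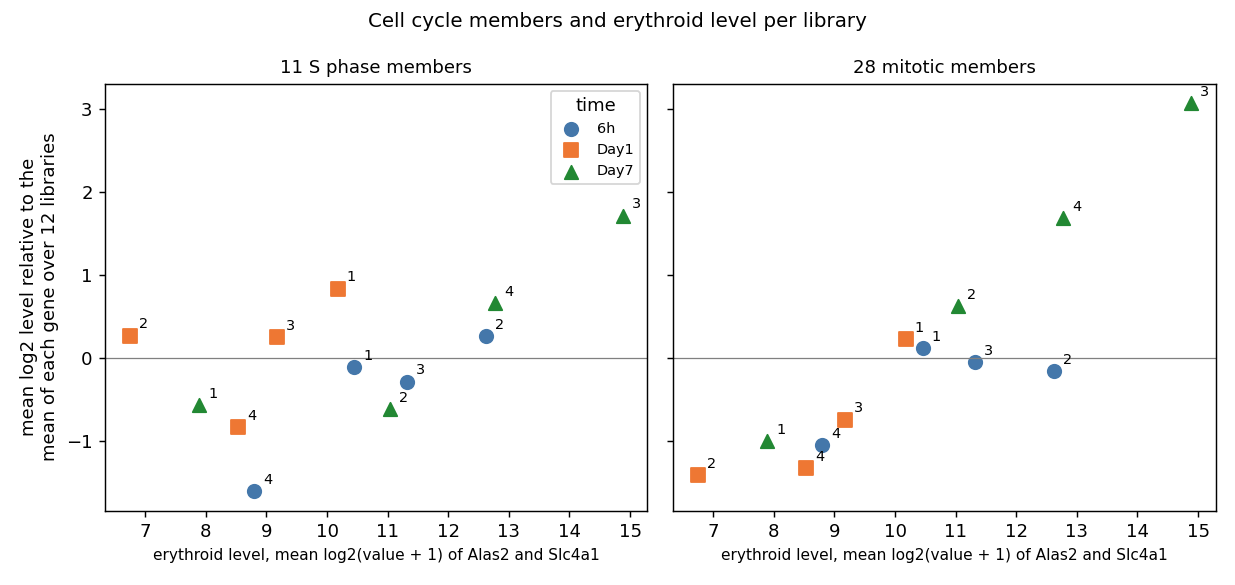
Mean log2 level of 11 S phase genes (left) and 28 mitotic genes (right), relative to each gene's mean over 12 libraries, against the erythroid level of each library. Numbers are replicates. Day7 replicate 3 has the highest erythroid level, 14.88, and the highest mitotic mean, 3.07.

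Day7 was compared with Day1 with limma on log2(value + 1) over 11211 genes, with Benjamini-Hochberg adjustment and a threshold of 0.05. Of the 35 genes tested, 2 rose, both mitotic, and none fell (limma), which was 5.71% of them. The background was 5.78% of all genes called, 2.19% higher and 3.59% lower, so the count of these 2 genes was close to it. Plk1 was higher by 3.16 ± 0.92 (SE) on the log2 scale (adjusted p = 0.0453, limma) and Cenpe by 3.09 ± 0.92 (adjusted p = 0.0475, limma). Their times did not overlap, as for 2 of the 35 tested genes, against 8.47% of all genes for Day7 above Day1. Kif20a and Foxm1, both under the filter, did not overlap either. No tested gene had all Day7 values below all Day1 values, which 14.5% of all genes had.

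Direction was read over every gene, tested or not. All 28 mitotic genes had a higher mean log2 level at Day7 than at Day1 (median difference 1.74), as did 6 of 11 S phase genes (median 0.31), against a median of -0.11 over 20052 genes in the unfiltered table. Rrm2 differed by 3.01 ± 1.12 (adjusted p = 0.0880, limma) and Mcm5 by -2.24 ± 0.79 (adjusted p = 0.0744, limma), neither past the threshold. Pcna differed by -0.69 ± 0.73 (adjusted p = 0.542, limma), Ube2c by 2.64 ± 1.21 (adjusted p = 0.149, limma) and Mki67 by 1.58 ± 1.16 (adjusted p = 0.370, limma). At an unadjusted p under 0.05, 13 of the 35 genes were called (37.1%), against 29.1% of all genes.

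Scaling changed the split. Scaled to all reads, 1 gene rose (Plk1) and 4 fell (Mcm5, Pcna, Mcm7 and Rrm1), and the medians of the tested genes were 0.22 for mitotic, -1.38 for S phase and -1.81 for all genes. Scaled to reads outside haemoglobin, 3 fell (Mcm5, Pcna and Mcm7) and none rose, with medians of 0.61, -1.14 and -1.62. Positive mitotic differences numbered 15 of 23 tested under the first of these scalings and 17 of 23 under the other. Over all 11211 genes, 1442 and 1725 differences were positive, so most genes fell under either scaling. Those at an unadjusted p under 0.05 (limma) numbered 5408 and 5301, and the S phase falls are to be read beside these counts. The mitotic median was above the S phase median under both, whereas the sign of the S phase median depended on the scaling. edgeR's quasi-likelihood test called 0 of the 35 and 1 of all genes. DESeq2 called 6 (Ube2c, Nusap1, Tpx2, Plk1 and Ccnb2 higher, Mcm5 lower), against 15.8% of all genes. With limma, the count was 11 without Day7 replicate 1, Plk1 and Cenpe among them, and 1 without Day1 replicate 1, which was Cdca8. It was 0 when any other single Day1 or Day7 library was dropped. At an unadjusted p under 0.05 (limma), all genes numbered 3266 with every library, 3453 without Day7 replicate 1 and 2828 without Day1 replicate 1. Tested mitotic genes numbered 11, 17 and 13 of 23 in the same 3 fits.

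Platelet markers moved with the same contrast, with summed levels of 25906 to 43592 normalised counts at Day7 and 1003 to 6406 at Day1, and 8 of 11 rose (limma). Erythroid markers (20 genes) summed to 891 to 70072 at Day7 and 368 to 2898 at Day1, and 3 of 20 rose (limma). With the erythroid level as a covariate, none of the 35 genes was called by limma (the lowest adjusted p was 0.0588, for Mcm5 at -3.004), and the medians were 0.38 for mitotic (16 of 23 positive), -0.72 for S phase and -0.29 for all genes. Plk1 then differed by 1.70 ± 0.97 (adjusted p = 0.329, limma) and Cenpe by 2.67 ± 1.10 (adjusted p = 0.170, limma). Both SEs were 0.92 without the covariate. At an unadjusted p under 0.05 (limma), 2285 of 11211 genes remained with the covariate, against 3266 without it. Among tested mitotic genes 2 remained, against 11, and among S phase genes 1, against 2. Calls were thus lost over all genes too, and a smaller share was kept among tested mitotic genes. While 16 of 23 stayed positive, Ube2c, Ccna2 and Mki67 were among those that turned negative, at -0.57, -0.49 and -0.63. Mature neutrophil markers summed to 102 to 728 at Day7 and 0.311 to 77.3 at Day1, and 2 of 6 tested rose (limma). Fibroblast and matrix markers summed to 20.4 to 689 at Day7 and 446 to 3157 at Day1, and 3 of 7 tested fell (limma). Reads on Y-linked genes were 0 in all 4 Day7 libraries and in Day1 replicate 1, and 603, 422 and 853 in Day1 replicates 2 to 4. Y-linked reads thus run largely along the Day7 and Day1 contrast, and the 2 cannot be fully told apart. With a term for these reads neither Plk1 nor Cenpe was called. Of the 23 tested mitotic genes, 21 were then positive, with a median of 1.27 against 2.19 without the term. Those at an unadjusted p under 0.05 (limma) numbered 4, against 11, and over all genes 1774, against 3266. The part of platelets, neutrophils and fibroblasts was not tested. Neutrophil precursor markers, of another dividing population, summed to at most 38.8 in any library, with Elane, Mpo, Ms4a3 and Ltf at 0 throughout. Blood progenitor markers summed to 8.02 to 120 at Day7 and 46.7 to 160 at Day1. Of these sums, Cd34 alone gave 19.3, 146, 96.8 and 134 in Day1 replicates 1 to 4, and Flt3 gave 72.2 in Day7 replicate 4. Kit, Hoxa9, Mecom and Myb were each at most 4.66 in any library. Plasma cell markers summed to 16.7 to 146 at Day7 and 45.4 to 81.5 at Day1. The part of any of these populations in the cell cycle RNA was not tested.

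In Day1 against 6h, none of the 35 genes was called by limma, against 0.169% of all genes, all of them higher. At an unadjusted p under 0.05 there was 1 gene, Mcm5, at 1.82 ± 0.79 (adjusted p = 0.409, limma), against 11.2% of all genes. edgeR called 0 (0.0803% of all genes) and DESeq2 called 1, Tacc3 (1.72% of all genes). Over all genes of each class, 9 of 11 S phase genes and 9 of 28 mitotic genes had a higher mean at Day1 than at 6h, with medians of 0.30 and -0.57, against 0.17 over 20052 genes in the unfiltered table. Neither direction held under every setting. Of the tested genes, 3 of 11 S phase genes were positive with edgeR (median -0.28) and with DESeq2 (median -0.38), and 14 of 23 mitotic genes scaled to all reads (median 0.12) and 17 of 23 with the erythroid covariate (median 0.70). Tacc3, a spindle protein, was at 0 in all 4 6h libraries and at 9.76, 0.408, 0.531 and 0.0389 at Day1, the only tested gene whose times did not overlap here (1 of 35, against 5.52% of all genes for Day1 above 6h). In Day7 against 6h, limma again called none, against 0.883% of all genes (0.607% higher and 0.277% lower). At an unadjusted p under 0.05 there were 9 (25.7%), against 18.0% of all genes. edgeR called 0 (0.749% of all genes) and DESeq2 called 2, Cenpf and Tacc3 (9.45% of all genes). The Day7 values of Tacc3, 0.825, 1.72, 6.17 and 19.6, lay above those of 6h, as for 1 of 35 tested genes, against 3.45% of all genes. No tested gene lay wholly below 6h at Day7, against 2.38% of all genes. Leaving out 6h replicate 1 gave 1 call, Cenpe, and leaving out Day7 replicate 1 gave 1, Cenpf. These comparisons share their Day7 or Day1 libraries.

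Within times, each gene was fitted on the erythroid level with the time group in the model, on 11209 genes without Alas2 and Slc4a1. Of 35 tested genes 6 rose with it (17.1%), all in the positive direction, against 2.79% of all genes (2.44% positive). Of these, 5 are mitotic and 1 acts in S phase. Slopes are log2(value + 1) per unit of erythroid level. Ube2c had 1.07 ± 0.11 (SE; adjusted p = 1.47e-06, limma), Nusap1 1.00 ± 0.16 (adjusted p = 0.000185, limma) and Ccna2 1.07 ± 0.20 (adjusted p = 0.00186, limma). A slope of 1 means that a gene changed in step with the erythroid genes. Cdca3 had 0.96 ± 0.20 (adjusted p = 0.00480, limma), Ccnb2 0.94 ± 0.22 (adjusted p = 0.0145, limma) and Rrm2 0.80 ± 0.19 (adjusted p = 0.0158, limma).

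The other genes formed a range without a break. Mki67 had a slope of 0.74 ± 0.21 (adjusted p = 0.0523, limma) and Birc5 0.72 ± 0.20 (adjusted p = 0.0576, limma), both just short of the threshold. Of the tested genes, Pcna (0.04 ± 0.16), Mcm6 (0.04 ± 0.19), Mcm4 (0.13 ± 0.18), Cdca8 (0.14 ± 0.22) and Cenpe (0.14 ± 0.20) had the lowest slopes. Cenpe was thus called between Day7 and Day1 but had a slope within 1 SE of 0, and Ube2c was called on the slope but not between the times. Over all genes of each class, all 11 S phase and all 28 mitotic genes had positive slopes (medians 0.26 and 0.45), against a median of -0.02 over 20050 genes; Foxm1 was at -0.07. Scaled to all reads, 5 of 11 S phase and 19 of 23 tested mitotic slopes were positive, with medians of -0.02 and 0.36 against -0.47 for all genes. The deposited scaling enters both axes, since a read was worth 0.617 in Day7 replicate 3, the most of any library, and the erythroid level was highest there. Without Day7 replicate 3 the count was 2, Ube2c and Nusap1, and edgeR called 2 as well (1.58% of all genes), and DESeq2 called 11 (4.93% of all genes).

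**Figure D4:**
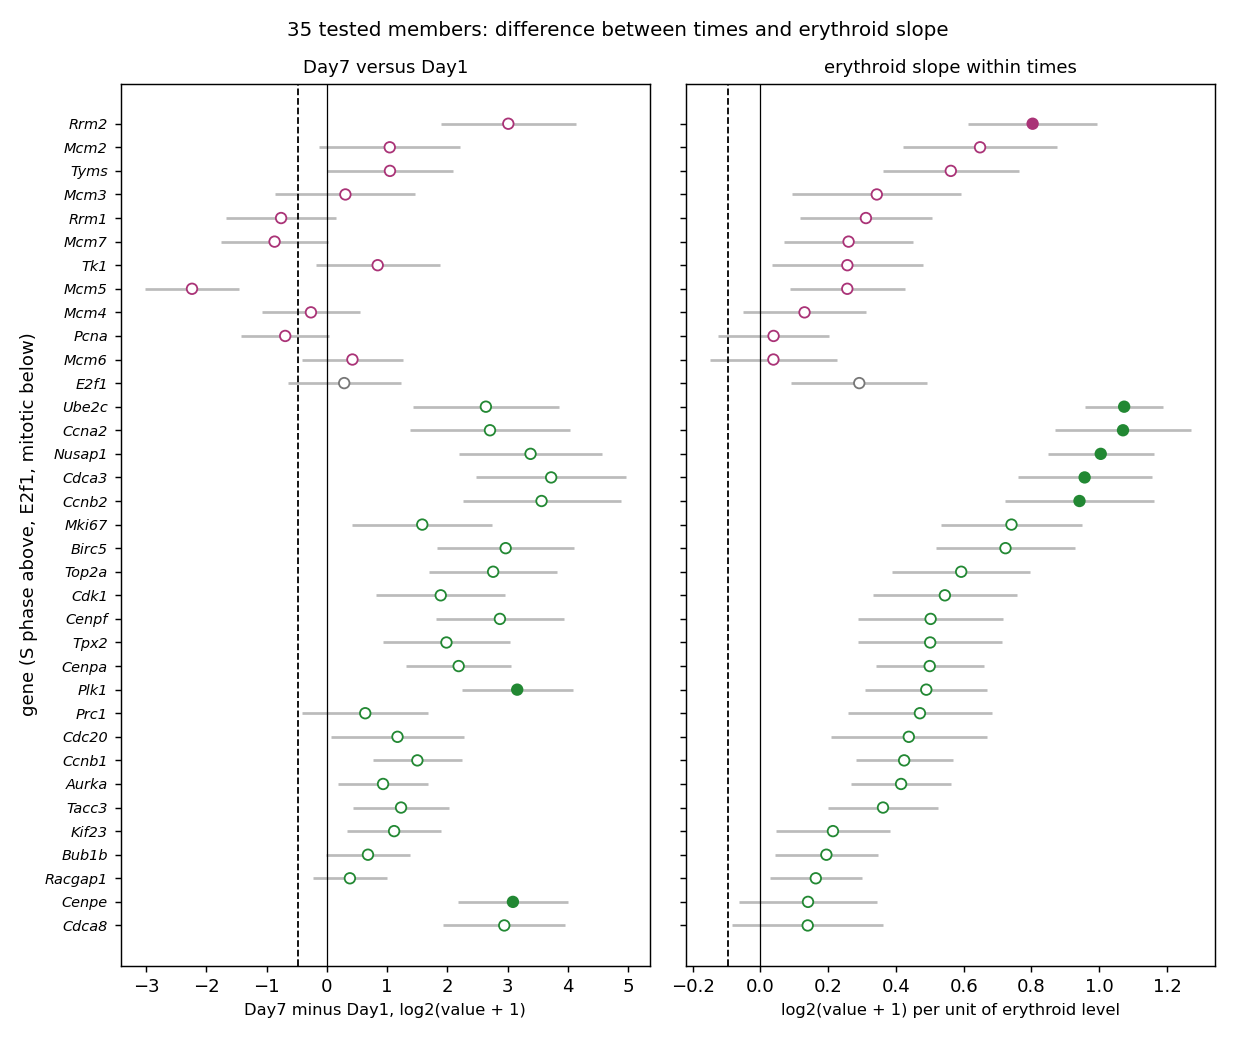
Difference Day7 minus Day1 (left) and slope on erythroid level within times (right) for the 35 tested genes, in log2 units, with bars of 1 SE; filled points passed the limma adjusted p and dashed lines mark the median of all genes. Plk1 and Cenpe are filled at left, Ube2c, Ccna2, Nusap1, Cdca3, Ccnb2 and Rrm2 at right.

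Counts within times follow the same values without a model. At Day7, 26 of 35 tested genes were highest in replicate 3, the library with the highest erythroid level, against 21.0% of all genes, and 25 of 35 were lowest in replicate 1, the library with the lowest, against 14.1%. By class, 22 of 28 mitotic and 7 of 11 S phase genes were highest in replicate 3. Of the 35, 20 had their highest value of all 12 libraries there, against 14.5% of all genes. At Day1, 23 of 35 were highest in replicate 1, which had the highest erythroid level, against 20.8%, and 7 of 35 were lowest in replicate 2, against 12.7%. At 6h, 10 of 35 were highest in replicate 2, against 24.9%, and 8 of 35 were lowest in replicate 4, against 13% of all genes.

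Other cell cycle genes were taken from lists of G1 and exit (24 genes), further replication (33) and further mitosis (37). Between Day7 and Day1, 1 of 23 tested G1 and exit genes rose and 1 fell. Ccnd3, a D-type cyclin, had 80.8, 15.9, 55.8 and 419 normalised counts at 6h and 15.6, 62.2, 35.9 and 43.6 at Day1. At Day7 it had 495, 617, 274 and 330, higher than at Day1 by 3.50 ± 0.86 (adjusted p = 0.0288, limma). Cdkn1a, the p21 inhibitor of cyclin-dependent kinases, had 58.6, 246, 85.9 and 79.6 at 6h, 67.0, 271, 272 and 59.7 at Day1 and 18.9, 8.42, 0 and 33.6 at Day7, with a difference of -3.88 ± 0.95 from Day1 (adjusted p = 0.0288, limma). For both genes the Day7 and Day1 libraries did not overlap. Ccnd3 was high in all 4 Day7 libraries, replicate 1 included, where the mitotic mean was -1.001. On the erythroid level, E2f2, an E2F factor of erythroid precursors, rose with a slope of 0.93 (adjusted p = 0.000159, limma). Its values were 18.7, 174, 78.5 and 13.2 at 6h, 58.3, 7.72, 17.7 and 6.97 at Day1 and 7.91, 86.1, 809 and 318 at Day7, highest in the library with the highest erythroid level at each time. Likewise 4 of 22 tested further mitosis genes rose, Cdc25b, Pttg1, Spc25 and Spc24, with slopes of 0.97, 0.86, 0.78 and 0.74 (adjusted p of 1.8e-05, 4.71e-05, 0.032 and 0.0399, limma). None of the 26 tested further replication genes was called by limma, with 4 (15.4%) at an unadjusted p under 0.05 in each time comparison and 3 (11.5%) on the erythroid level. Over all genes these shares were 11.2% for Day1 against 6h, 29.1% for Day7 against Day1, 18.0% for Day7 against 6h and 16.3% on the erythroid level.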

How the data were processed

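Total RNA of sorted blood was sequenced after a Seqwell Rapid kit, per the labels. STAR 2.7.10, HTSeq 2.0.1 and mm9 are named in the submitters' processing notes; the sources used here do not give their roles, the annotation, the strand setting or the scaling step. The deposited table holds a normalised signal, named CPM, that does not sum to a fixed total: divided by the smallest positive value of its library, 100% of values were whole reads within 0.01. Its scaling equals TMM on those reads. The genes and lists were chosen with earlier results of these data known. Genes reaching a value of 1 in 4 or more libraries entered limma 3.58.1 (R 4.3.3), trend on log2(value + 1), a pseudocount that understates changes of low genes, with the 12 libraries in 1 fit, time as the only term, and Benjamini-Hochberg adjustment at 0.05. edgeR 4.0.16 and DESeq2 1.42.0 ran on the recovered reads as alternatives. The erythroid slope added the erythroid level to the time term. Single genes were given in full if called, or if a standard marker of proliferation, S phase or mitosis chosen by name; others were given by range. Scripts were tested on simulated data. Promoters are from the RefSeq table on GRCm38.p6, used for sequence only; no coordinates were moved between builds.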

Additional observations from a re-analysis of the deposited data

Results flagged for a closer look

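In 4 of 69 groups of 4 libraries, 1 library lay far from the other 3 by Dixon's ratio; chance gives about 1 in 20. In 6h replicate 1 these were Cdk1, at 12.7 normalised counts, and Cenpe, at 21.7. In Day1 replicate 1 they were Birc5, at 13.3, and Aurkb, at 5.19, where the other 3 libraries had none. The first library had the highest T cell marker sum and the second the highest erythroid level of its time; their part was not tested.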

How the results depend on the processing

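Between Day7 and Day1, the 2 calls became 0 with a pseudocount of 0.25 or 4, without a filter, with a mean of at least 10, with median-of-ratios scaling, with a term for Y-linked reads, with edgeR and with the erythroid level as covariate. The count was 5 scaled to all reads, 6 with DESeq2 and 1 (Cenpe) without the 2 libraries with the fewest genes, a setting chosen after seeing the data. It ran from 0 to 11 with single libraries left out. For Day1 against 6h it was 1 scaled to all reads (Mcm5) and 1 with DESeq2. For Day7 against 6h it was 2 with DESeq2, 1 without the 2 libraries with the fewest genes and 0 to 1 with single libraries left out. The 6 erythroid slopes became 3 scaled to reads outside haemoglobin, 2 with edgeR, 11 with DESeq2, 11 without the time term, and 2 to 9 with single libraries left out. Except for edgeR and DESeq2, the counts of this paragraph stand without the share of all genes called. They show how the calls moved, not an excess over all genes. The calls of Ube2c and Nusap1 held in all 28 alternatives of the slope, those of Plk1 in 9 and Cenpe in 8 of 25. TMM scaling is 1 of these alternatives and repeats the main fit. Leaving out a 6h library, where Plk1 and Cenpe also held, left their Day7 minus Day1 difference unchanged. The Day7 minus Day1 difference in the S phase mean was 0.17, 1.35 with a mean of at least 10, -1.40 scaled to all reads and -1.18 scaled to reads outside haemoglobin. In the mitotic mean it was 1.91 and 0.50 scaled to all reads, and 1.25 to 2.60 with single libraries left out. The cause of these shifts was not tested. Same-numbered libraries correlated from -0.23 to 0.12 and differently numbered ones from -0.22 to 0.26. These values gave no sign that the numbers pair libraries, but cannot exclude it, since each library is a mixture of varying make-up. The replicate block gave 2 calls for Day7 against Day1, 0 for the other times and 4 slopes. No called value changed sign; the S phase mean, which carries no test, did so under both read scalings and ran from -0.30 to 0.47 with single libraries left out. Depth limits genes near 3 reads, and with 4 libraries a group, differences within the spread shown were not detectable.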
